A study of Rattus norvegicus with 12 samples.

Results

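The 10 genes described here carry antigen processing for MHC class I and the immunoproteasome in cultured rat heart muscle cells. They are B2m, Tap1, Tap2, Tapbp, Psmb8, Psmb9, Psmb10, Psme1, Psme2 and Nlrc5, and they were taken by gene symbol from the 18483 genes of the deposited tables. Each symbol was found once, and all 10 passed the filter on low counts that left 13967 genes for testing. RNA was sequenced from neonatal rat ventricular myocytes (NRVMs) of Sprague-Dawley rats in 4 groups of 3 biological replicates. All cultures received an siRNA, either siNeg (negative control) or siSlc39a2, which targets the zinc transporter Slc39a2 and was of 1 sequence. The siNeg and siSlc39a2 groups were otherwise untreated. The siNeg PE and siSlc39a2 PE groups received phenylephrine (PE), an α1-adrenergic agonist that induces hypertrophy, for 36 h from 12 h after transfection, per the labels, where the study's culture methods give a longer time with PE. The cells were enriched from digested ventricles of newborn animals, plated with serum and then moved to medium with insulin, transferrin and selenium, so the cultures can hold some non-myocytes. In such bulk RNA a change in the number of cells of a type and a change in RNA per cell cannot be told apart.

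MHC class I molecules show peptides from inside the cell to T cells. The proteasome cuts proteins into peptides, the TAP transporter pumps them into the endoplasmic reticulum, and tapasin helps load them onto a heavy chain held together with β2-microglobulin. Interferons are known to raise most genes of this pathway and to replace the catalytic subunits of the standard proteasome with those of the immunoproteasome.

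The start regions of these genes were examined for 2 sequence patterns linked to interferon signalling. The first was GAAANNGAAA, the core of the interferon-stimulated response element, and the second was TTCNNNGAA, the gamma-activated sequence, both searched on either strand from 250 bases before to 50 bases after the gene start in RefSeq sequence of rat build GRCr8. The table held 9 of the 10 genes, and GAAANNGAAA was in 7 of those 9 (77.8%), against 3.92% of all 33469 promoters in the table and 3.08% of the 15750 promoters of genes in the count table. It was in 4 of 23 promoters of heavy chain and related genes (17.4%) and in 2 of 13 of the constitutive 20S core (15.4%), which are described further below. The 30-base windows around the matches are shown because they belong to genes that moved together. Capitals mark the match, each line is written in the direction of its gene, and matches of Tap1 and Psmb8 read as the reverse complement.
B2m, chr3:129549170-129549199, plus strand: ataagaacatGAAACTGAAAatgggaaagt
Tap1, chr20:4668645-4668674, minus strand: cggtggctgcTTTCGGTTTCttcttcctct
Tap2, chr20:4652318-4652347, minus strand: gcagcgaagtGAAAGCGAAAgcccgggacc
Tapbp, chr20:4967884-4967913, minus strand: gcctttgaggGAAAATGAAAgtgaaaggaa
Psmb8, chr20:4657016-4657045, minus strand: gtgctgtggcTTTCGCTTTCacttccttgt
Psmb10, chr19:50743346-50743375, minus strand: aagcaaaggcGAAAGTGAAAgagaagatgc
Psmb10, chr19:50743290-50743319, minus strand: agtggggggtGAAAGCGAAAgtaggaagcg
Psme2, chr15:33052785-33052814, minus strand: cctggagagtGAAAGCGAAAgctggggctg

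The matches began 150 bases before the start of B2m, 121 before Tap1, 53 before Psme2, 41 before Tap2 and 26 before Tapbp. In Tapbp a second match overlapped the first and began 20 bases before the start. Psmb10 had matches that began 73 and 17 bases before its start, and the match of Psmb8 began 4 bases before the start and ran past it. Neither Psmb9 nor Psme1 held these letters in the window. Tap1 and Psmb9 point away from each other on chromosome 20, with 457 bases between their starts, and the match of Tap1 ended 336 bases before the start of Psmb9, outside the Psmb9 window. TTCNNNGAA was found in 1 of the 9 windows, that of Psmb8, and in 8.87% of all promoters. A match of letters does not show that a factor bound there.

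The targeted gene was low in all samples. Slc39a2 had 1.97, 1.89 and 2.32 CPM (counts scaled to the TMM-normalized library size) in siNeg, 0.726, 0.373 and 0.0780 in siSlc39a2, 3.5, 6.96 and 6.68 in siNeg PE and 1.16, 0.862 and 1.38 in siSlc39a2 PE. It was lower in siSlc39a2 than in siNeg by a log2 fold change of -2.35 (SE 0.46, adjusted p = 0.00098 from edgeR) and lower with PE by -2.33 (SE 0.38, adjusted p = 0.000224). Total expected counts were between 24065539 and 28603854 per sample. The 10 genes together took 0.0689% to 0.104% of the counts in the siNeg groups and 0.375% to 0.539% in the siSlc39a2 groups.

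The members rose together after Slc39a2 knockdown. In siSlc39a2 against siNeg, 8 of the 10 genes were higher past the threshold (adjusted p below 0.05 and absolute log2 fold change above 1), against 4.57% of the 13967 genes tested that were higher past it. At the adjusted p alone all 10 were higher, against 22.8% of all genes tested. In siSlc39a2 PE against siNeg PE, 9 of 10 were higher past the threshold, against 6.03% of all genes, and all 10 at the adjusted p alone, against 29.2%. The median log2 fold change of the 10 genes was 3.05 without PE and 2.82 with PE, where the median of all genes tested was -0.02 and 0.01. None of the 10 genes overlapped in CPM between knockdown and control, and all lay higher in knockdown, as did 27.9% of all genes tested without PE and 31.8% with PE. These counts include Nlrc5, whose rise in counts was absent on the FPKM scale, as described below.

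**Figure D1:**
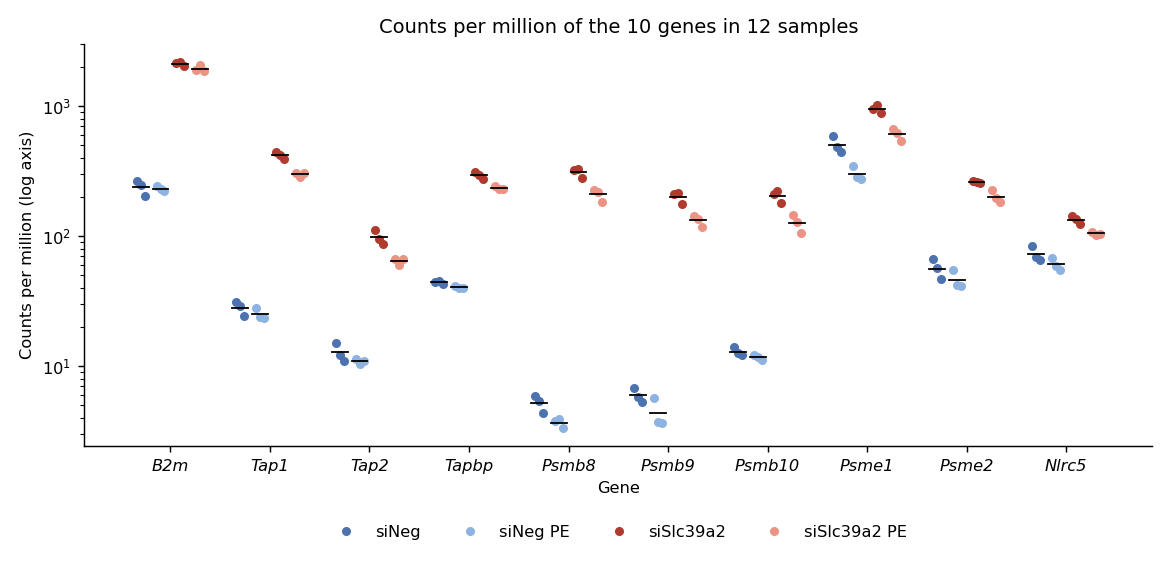
CPM of the 10 genes on a log axis, with 1 point per sample, 3 samples per group and a bar at each group mean. For each gene both siSlc39a2 groups lie above the siNeg group of the same treatment, with Psmb8 between 4.37 and 5.92 in siNeg and between 280.2 and 332 in siSlc39a2.

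Psmb8 and Psmb9, both catalytic subunits of the immunoproteasome, showed the largest increases of the 10 genes at either treatment. Psmb8 (LMP7, β5i; NCBI gene 24968) had 5.92, 5.46 and 4.37 CPM in siNeg and 322.7, 332 and 280.2 in siSlc39a2. With PE it had 3.8, 3.90 and 3.38 CPM in siNeg PE and 228, 220.7 and 185 in siSlc39a2 PE. All knockdown samples lay far above all control samples, with a log2 fold change of 5.89 (59.3-fold, SE 0.13, adjusted p = 1.68e-12 from edgeR) without PE and 5.84 (57.1-fold, SE 0.13, adjusted p = 2.93e-12) with PE. Psmb9 (LMP2, β1i; gene 24967) had 6.87, 5.83 and 5.36 CPM in siNeg, 210.3, 214 and 178 in siSlc39a2, 5.75, 3.76 and 3.67 in siNeg PE and 145, 137 and 119 in siSlc39a2 PE. Its log2 fold change was 5.06 (SE 0.16, adjusted p = 3.24e-11 from edgeR) without PE and 4.93 (SE 0.16, adjusted p = 5.87e-11) with PE. The knockdown samples of Psmb9 were likewise well separated from the controls at either treatment.

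Psmb10 (MECL-1, β2i; gene 291983) started from a higher level per length, at 11.9 ± 0.981 FPKM (SD, n = 3) in siNeg against 6.91 ± 0.706 for Psmb9 and 4.98 ± 0.647 for Psmb8. Psmb10 had 14.1, 12.7 and 12.2 CPM in siNeg, 211, 221 and 179.9 in siSlc39a2, 12.2, 11.9 and 11.3 in siNeg PE and 146, 129 and 106 in siSlc39a2 PE. The groups again did not overlap between knockdown and control, and the siSlc39a2 PE samples lay below those of siSlc39a2. The log2 fold change was 3.97 (15.7-fold, SE 0.12, adjusted p = 3.24e-11 from edgeR) without PE and 3.43 (10.8-fold, SE 0.12, adjusted p = 1.55e-10) with PE.

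The constitutive subunits of the same positions moved little. Psmb5, Psmb6 and Psmb7 are the standard β5, β1 and β2 subunits, which Psmb8, Psmb9 and Psmb10 replace. Their log2 fold changes in siSlc39a2 against siNeg were -0.22 (SE 0.10, adjusted p = 0.0819 from edgeR), 0.15 (SE 0.11, adjusted p = 0.299) and 0.13 (SE 0.08, adjusted p = 0.167). With PE, Psmb5 fell by 0.35 on the log2 scale (SE 0.10, adjusted p = 0.00755 from edgeR), while Psmb6 and Psmb7 had 0.19 (adjusted p = 0.161) and 0.19 (adjusted p = 0.0532).

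Levels of an induced and a constitutive subunit were compared per transcript length, as ratios of FPKM within each sample. The ratio of Psmb8 to Psmb5 was 0.0207 ± 0.00163 (SD, n = 3) in siNeg, 1.43 ± 0.0191 in siSlc39a2, 0.0156 ± 0.00122 in siNeg PE and 1.14 ± 0.00946 in siSlc39a2 PE. Psmb8 was thus far below Psmb5 in control cells and above it in all 6 knockdown samples. The ratio of Psmb9 to Psmb6 was 0.0290 ± 0.000951 (SD, n = 3) in siNeg and 0.876 ± 0.0476 in siSlc39a2, and 0.0241 ± 0.00420 and 0.650 ± 0.00830 in the groups with PE. The ratio of Psmb10 to Psmb7 was 0.0503 ± 0.000984 (SD, n = 3) in siNeg and 0.773 ± 0.0483 in siSlc39a2, and 0.050 ± 0.00286 and 0.488 ± 0.0444 with PE. These 2 ratios stayed below 1 in every sample. On the log2 scale the 3 ratios differed between siSlc39a2 and siNeg by 6.12, 4.92 and 3.94, and between the PE groups by 6.19, 4.77 and 3.28. Each of these 6 differences had p = 0.1 in a two-sided exact permutation test, the smallest p that 3 against 3 samples allow, before and after adjustment over the 6.

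**Figure D2:**
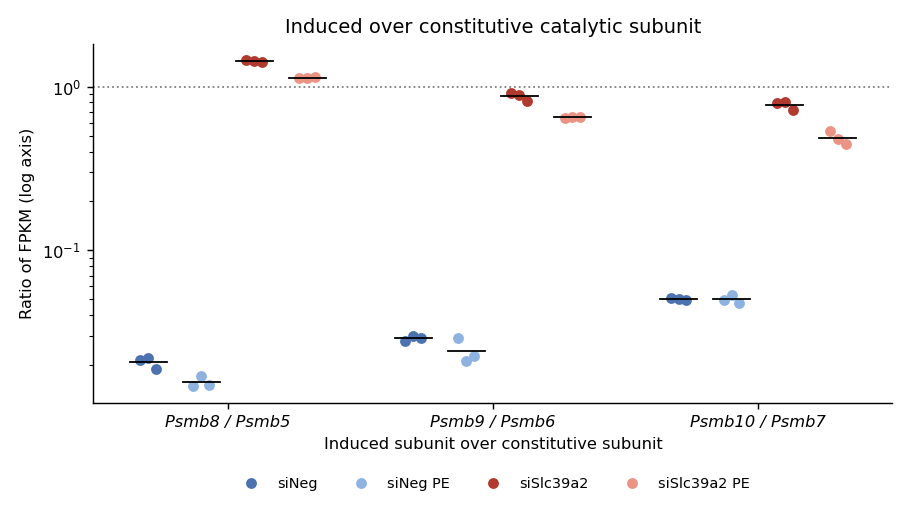
Ratio of FPKM of the induced over the constitutive catalytic subunit on a log axis, with 1 point per sample, a bar at each group mean and a dotted line at 1. Psmb8 to Psmb5 lies between 1.41 and 1.45 in siSlc39a2 and between 0.0189 and 0.0219 in siNeg, and only this ratio passes 1.

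The activator subunits of the proteasome differed from each other. Psme1 and Psme2 encode PA28α and PA28β, which form the interferon-inducible cap of the proteasome. Psme2 (gene 29614) was between 46.6 and 66.5 CPM in siNeg, 256 and 267 in siSlc39a2, 41.3 and 55.0 in siNeg PE and 183 and 225 in siSlc39a2 PE. Its log2 fold change was 2.21 (SE 0.13, adjusted p = 2.98e-08 from edgeR) without PE and 2.12 (SE 0.13, adjusted p = 4.93e-08) with PE.

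Psme1 (gene 29630) had 587, 487 and 449 CPM in siNeg, 958, 1026 and 882 in siSlc39a2, 346, 288 and 275 in siNeg PE and 666, 627 and 542 in siSlc39a2 PE. It differed less between knockdown and control than Psme2 did, and its siSlc39a2 PE samples reached down to the range of the untreated siNeg samples. The log2 fold change was 0.91 (1.88-fold, SE 0.12, adjusted p = 3.17e-05 from edgeR) without PE, short of the threshold of 1, and 1.01 (2.02-fold, SE 0.12, adjusted p = 1.24e-05) with PE, just past it. Without PE the value rose past 1 when siNeg replicate 1 (1.03) or siSlc39a2 replicate 3 (1.02) was left out. With PE it came below 1 when siNeg PE replicate 2 (0.98) or 3 (0.95) or siSlc39a2 PE replicate 1 (0.94) or 2 (0.99) was left out. Psme3, which encodes the nuclear activator PA28γ, had a log2 fold change of 0.12 (SE 0.05, adjusted p = 0.0892 from edgeR) without PE and 0.19 (SE 0.05, adjusted p = 0.00881) with PE.

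Both subunits of the peptide transporter rose. Tap1 (gene 24811) had 31.4, 28.9 and 24.5 CPM in siNeg, 445, 421 and 392 in siSlc39a2, 28.0, 24 and 23.6 in siNeg PE and 307, 286 and 306 in siSlc39a2 PE. Its log2 fold change was 3.89 (14.8-fold, SE 0.10, adjusted p = 5.13e-12 from edgeR) without PE and 3.57 (11.9-fold, SE 0.10, adjusted p = 1.43e-11) with PE. Tap2 (gene 24812) was between 11 and 15.1 CPM in siNeg, 88.0 and 113 in siSlc39a2, 10.4 and 11.4 in siNeg PE and 60.2 and 67.5 in siSlc39a2 PE. Its log2 fold change was 2.95 (SE 0.12, adjusted p = 6.04e-10 from edgeR) without PE and 2.56 (SE 0.12, adjusted p = 3e-09) with PE. Tap1 was higher than Tap2 per length as well, with 169.5 ± 8.87 against 44.1 ± 5.37 FPKM (SD, n = 3) in siSlc39a2 and 10.3 ± 1.08 against 5.17 ± 0.734 in siNeg.

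B2m encodes the invariant light chain of class I molecules (gene 24223). It had 265, 247 and 205 CPM in siNeg, 2136, 2184 and 2056 in siSlc39a2, 245, 230.2 and 221 in siNeg PE and 1900, 2068 and 1887 in siSlc39a2 PE. The lowest knockdown sample was far above the highest control sample. The log2 fold change was 3.15 (8.90-fold, SE 0.09, adjusted p = 1.56e-11 from edgeR) without PE and 3.07 (8.40-fold, SE 0.09, adjusted p = 2.65e-11) with PE.

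Tapbp encodes tapasin, which bridges TAP and the heavy chain (gene 25217). It had 44.5, 45.3 and 42.7 CPM in siNeg, 312, 295 and 275 in siSlc39a2, 41.5, 40.1 and 39.8 in siNeg PE and 244, 229.6 and 230.3 in siSlc39a2 PE. Its log2 fold change was 2.73 (6.66-fold, SE 0.06, adjusted p = 2.2e-12 from edgeR) without PE and 2.54 (5.80-fold, SE 0.06, adjusted p = 5.3e-12) with PE. Tapbp had whole counts in none of the 12 samples, and it shares reads with the neighbouring genes Zbtb22, Daxx and Rgl2, so the value is uncertain. Zbtb22 moved the other way, from 985, 873 and 898 expected counts in siNeg to 69.2, 65.7 and 33.9 in siSlc39a2 (log2 fold change -4.16, SE 0.22, adjusted p = 7.31e-09 from edgeR). Tapbp had between 1084 and 1196 expected counts in siNeg and between 7062 and 9029 in siSlc39a2, so the reads lost by Zbtb22 were fewer than those gained by Tapbp. With the reads of Zbtb22 added to Tapbp the log2 fold change was 1.89 (adjusted p = 7.15e-11 from edgeR) without PE and 1.75 (adjusted p = 1.89e-10) with PE. With the reads of Daxx and Rgl2 added as well it was 1.43 (adjusted p = 5.56e-10 from edgeR) and 1.31 (adjusted p = 1.54e-09). Daxx and Rgl2 were themselves higher, by 1.30 (SE 0.08) and 1.05 (SE 0.06) on the log2 scale without PE. Rgl2 rose less in FPKM, from a mean of 16.5 in siNeg to 27.25 in siSlc39a2. The length that turns its counts into FPKM had a mean of 6837 bases in siNeg and 9492 in siSlc39a2. How the reads divide between these genes was not tested.

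Nlrc5, the transactivator of class I genes (gene 291861), gave different answers on the 2 scales. It had 84.3, 69.8 and 66.0 CPM in siNeg, 142, 135 and 124 in siSlc39a2, 68.0, 59.2 and 55.3 in siNeg PE and 109, 103 and 104 in siSlc39a2 PE. In FPKM it had 241, 202 and 200.2 in siNeg, 223, 199 and 198 in siSlc39a2, 210.4, 191 and 172 in siNeg PE and 174, 152 and 152 in siSlc39a2 PE. The counts of knockdown and control did not overlap, whereas in FPKM 2 samples of siSlc39a2 lay just below the siNeg range and the other within it. In counts the log2 fold change was 0.87 (SE 0.10, adjusted p = 1.17e-05 from edgeR) without PE and 0.79 (SE 0.10, adjusted p = 2.45e-05) with PE, while limma on log2(FPKM + 1) gave -0.10 (adjusted p = 0.278) and -0.27 (adjusted p = 0.00594). The direction for Nlrc5 is therefore not settled by these tables.

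The length that turns counts into FPKM can be read back from the 2 tables. For Nlrc5 this implied length was between 317 and 331 bases in siNeg and 314 and 323 in siNeg PE, and between 665 and 707 in siSlc39a2 and 626 and 689 in siSlc39a2 PE. The ratio of siSlc39a2 to siNeg was 2.10 for Nlrc5 and between 0.934 and 1.00 for the other 9 genes. Over the 9971 genes with at least 100 counts in every sample the median ratio was 1.00, with the 5th percentile at 0.973 and the 95th at 1.03, and Nlrc5 was the 1 gene to reach its value. The implied length is that of the transcript mix in the authors' estimate, and which transcripts these were was not analysed here.

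**Figure D3:**
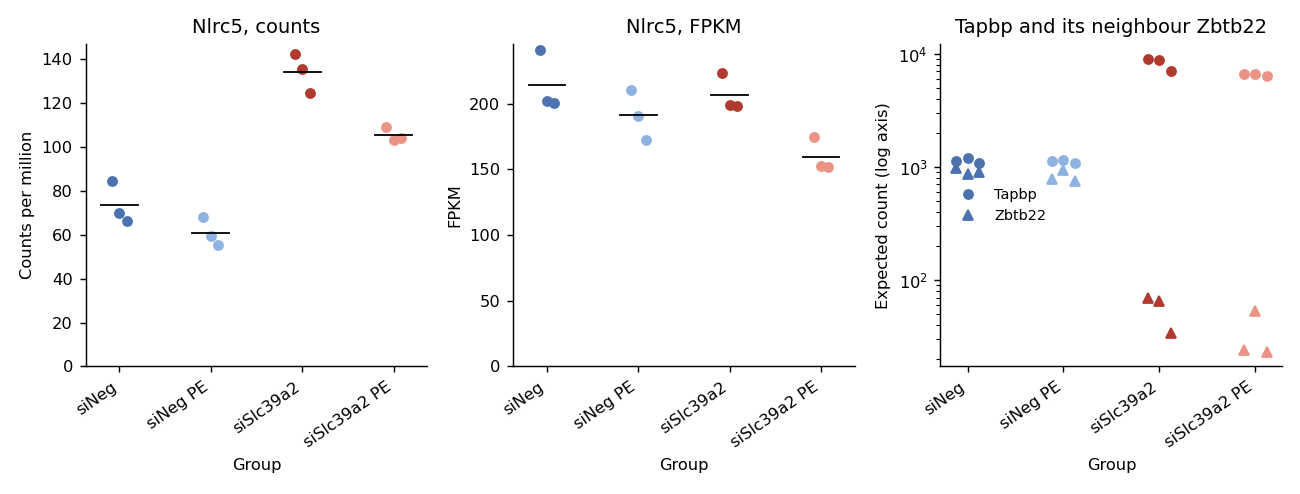
Left and centre, Nlrc5 in CPM and in FPKM, with 1 point per sample and a bar at each group mean. Right, expected counts of Tapbp (circles) and its neighbour Zbtb22 (triangles) on a log axis, where Tapbp lies between 7062 and 9029 and Zbtb22 between 33.9 and 69.2 in siSlc39a2.

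Levels of the 10 genes were ordered per length, by mean FPKM. In siNeg the order was Psme1 (527), Nlrc5 (214), B2m (130), Psme2 (44.6), Tapbp (28.4), Psmb10 (11.9), Tap1 (10.3), Psmb9 (6.91), Tap2 (5.17) and Psmb8 (4.98). Samples of Psmb10 and Tap1, and those of Tap2 and Psmb8, overlapped, and the other neighbours did not. In siSlc39a2 the order was B2m (1277), Psme1 (1095), Psmb8 (326), Psmb9 (254), Psme2 (229), Psmb10 (221), Tapbp (209), Nlrc5 (207), Tap1 (169.5) and Tap2 (44.1). There the 5 genes from Psmb9 to Nlrc5 overlapped with their neighbours, and the others stood apart. Psmb8 thus moved from the last place, where it overlapped with Tap2, to the third. The place of Nlrc5 rests on its implied length, a mean of 324 bases in siNeg and 681 in siSlc39a2, and is uncertain.

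The order of the knockdown effects without PE was Psmb8, Psmb9, Psmb10, Tap1, B2m, Tap2, Tapbp, Psme2, Psme1 and Nlrc5. Neighbours in this order within 2 SE of each other were Psmb10 and Tap1, B2m and Tap2, Tap2 and Tapbp, and Psme1 and Nlrc5, where the place of Nlrc5 holds for counts alone. With PE the order was the same but for Tap1, which stood before Psmb10 by 0.14 (SE 0.16). The difference between Psmb8 and Psmb9 was 0.83 (SE 0.20) without PE and 0.91 (SE 0.21) with PE, beyond 2 SE in both. The SE of such a difference was the square root of the summed squared SEs of the 2 genes. It takes the genes as independent although they were measured in the same samples, so it is a rough guide.

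**Figure D4:**
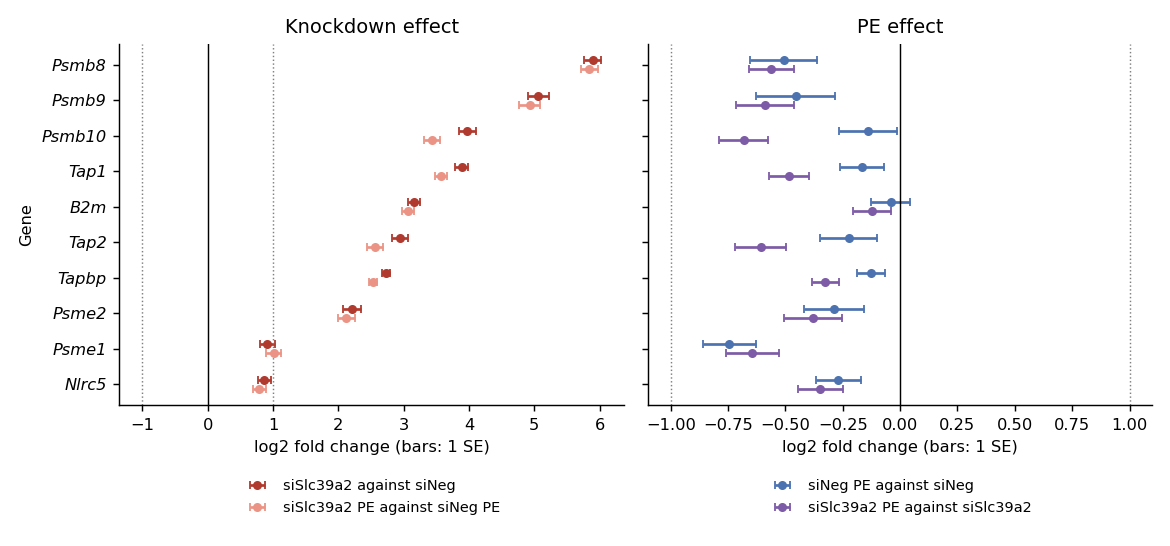
Log2 fold changes of the 10 genes with bars of 1 SE, n = 3 samples per group, for the knockdown (left) and for PE (right). Dotted lines mark log2 fold changes of -1 and 1. Knockdown effects run from 0.87 for Nlrc5, a rise absent in FPKM, to 5.89 for Psmb8 without PE, and all PE effects lie between -0.74 and -0.04.

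The effects of PE on the 10 genes were below the threshold at either transfection. In siNeg PE against siNeg none of the 10 genes was lower past the threshold, where 2.8% of all genes were. At the adjusted p alone 4 of 10 were lower, against 25.7% of all genes, and none was higher. Psme1 fell by 0.74 on the log2 scale (SE 0.12, adjusted p = 0.000267 from edgeR), and its groups did not overlap. The other 3 were Psmb8 with -0.51 (SE 0.15, adjusted p = 0.0121), Psmb9 with -0.46 (SE 0.17, adjusted p = 0.0442) and Nlrc5 with -0.27 (SE 0.10, adjusted p = 0.0362).

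Each of these 3 calls was lost when some single libraries were left out, while the values stayed below 0. With samples left out the log2 fold change was between -0.62 and -0.41 for Psmb8 and between -0.69 and -0.34 for Psmb9. For Nlrc5 it was between -0.36 and -0.16. Psmb8 was between 4.37 and 5.92 CPM in siNeg and between 3.38 and 3.90 in siNeg PE. Without siNeg replicate 1 the adjusted p from edgeR was 0.0601 for Psmb8, 0.166 for Psmb9 and 0.178 for Nlrc5, and without siNeg PE replicate 3 it was 0.0518, 0.165 and 0.147. Psmb9 also lost its call without siNeg replicate 2 (adjusted p = 0.0713 from edgeR) and without siNeg PE replicate 2 (0.158), and Nlrc5 without siNeg PE replicate 2 (0.105). In the fit on the 2 groups alone the adjusted p was 0.0989 for Psmb9 and 0.0894 for Nlrc5, and in FPKM Nlrc5 had -0.07 (adjusted p = 0.427 from limma). Of the other 6 genes, Psme2 and Tap1 gained a call without siNeg replicate 3 (adjusted p = 0.0207 and 0.0353 from edgeR), and Psme2 also without siNeg PE replicate 1 (0.0164). B2m had -0.04 (SE 0.08, adjusted p = 0.709), with a 95% interval from -0.24 to 0.16.

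In siSlc39a2 PE against siSlc39a2 again none of the 10 passed the threshold, against 4.17% of all genes lower past it, and 9 of 10 were lower at the adjusted p alone, against 29.3% of all genes. The median log2 fold change was -0.52, where that of all genes was 0.01, and in siNeg cells it was -0.25 against -0.01. Psmb10 fell by 0.68 (SE 0.11, adjusted p = 0.000183 from edgeR), from between 179.9 and 221 CPM to between 106 and 146. Psme1 fell by 0.64 (SE 0.11, adjusted p = 0.000439), Tap2 by 0.61 (SE 0.11, adjusted p = 0.0005), Psmb9 by 0.59 (SE 0.13, adjusted p = 0.00152) and Psmb8 by 0.56 (SE 0.10, adjusted p = 0.00038). Tap1 fell by 0.49, Psme2 by 0.38, Nlrc5 by 0.35 and Tapbp by 0.33. The groups did not overlap for any of these 9 genes, nor for 32.6% of all genes tested, counted where the PE group was lower. B2m had -0.12 (SE 0.08, adjusted p = 0.221 from edgeR, 95% interval -0.32 to 0.07), and its groups overlapped. The call of Psme2 (adjusted p = 0.0201 from edgeR) was lost without siSlc39a2 replicate 1 (0.0574) or 2 (0.05) and without siSlc39a2 PE replicate 2 (0.0616) or 3 (0.0752).

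Whether the knockdown effect differed with PE was tested as the interaction of knockdown and PE. By edgeR none of the 10 genes passed the adjusted p, against 3.61% of all genes that did in either direction. An unadjusted p below 0.05 was found for 4 of 10 (Psmb10, Tap1, Tapbp and Tap2), all with a smaller effect with PE. Of the 13967 genes tested, 2235 had such an unadjusted p in either direction. The interaction of Psmb10 was -0.54 (SE 0.16, adjusted p = 0.0995 from edgeR, 95% interval -0.92 to -0.16). DESeq2 gave -0.56 (adjusted p = 0.0306) for Psmb10 and called no other member, and edgeR called Psmb10 without siSlc39a2 PE replicate 1 (-0.70, adjusted p = 0.03) and without siSlc39a2 replicate 3 (-0.67, adjusted p = 0.0422). With the replicate number as a block its adjusted p was 0.00907. The intervals of Psmb8 (-0.46 to 0.35), Psmb9 (-0.63 to 0.36) and Psme1 (-0.27 to 0.47) covered 0.

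Other genes of the pathway were counted from lists chosen with results of these data known. Of all genes tested, 4.57% were higher past the threshold without PE and 6.03% with PE, and 22.8% and 29.2% were higher at the adjusted p alone. Of 22 tested class I heavy chain and related genes, 18 were higher past the threshold in siSlc39a2 against siNeg and 1 was lower, with a median log2 fold change of 3.69. The largest were RT1-T24-3 with 6.78 (SE 0.16, adjusted p = 2.2e-12 from edgeR), RT1-S3 with 5.61 (SE 0.16) and RT1-N2 with 4.86 (SE 0.16). Near-identical RT1 copies share reads, so the share of each is uncertain. The lower gene was Fcgrt, the neonatal Fc receptor, with -1.34 (SE 0.08, adjusted p = 1.92e-08 from edgeR). It was named after its value was seen. With PE, 18 were higher and 1 lower, with a median of 3.47.

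Of 11 genes for peptide trimming, loading and class I folding, 2 were higher past the threshold and none lower, with 5 higher and 2 lower at the adjusted p alone and a median of 0.32. They were Tapbpl, the tapasin-related peptide editor, with 2.21 (SE 0.09, adjusted p = 5.83e-10 from edgeR), and Erap1, an aminopeptidase that trims peptides, with 1.05 (SE 0.11, adjusted p = 9.44e-06). With PE 3 were higher past the threshold, Tapbpl, Erap1 and the chaperone Hspa5 (1.02, adjusted p = 4.69e-07 from edgeR).

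None of the 14 subunits of the constitutive 20S core passed the threshold in siSlc39a2 against siNeg, while 9 were higher and none lower at the adjusted p alone, with a median log2 fold change of 0.36. Their values lay between -0.22 and 0.86. Of 8 further activator and assembly genes, 1 was higher past the threshold, Psmf1 (PI31, a proteasome regulator), with 1.5 (SE 0.07, adjusted p = 4.32e-09 from edgeR), and the median was 0.12. With PE, Psme4, which encodes the activator PA200, passed as well with 1.22 (adjusted p = 7.55e-05 from edgeR).

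Of 24 tested regulators of class I transcription, 9 were higher past the threshold and none lower, with 16 higher at the adjusted p alone and a median of 0.41. Ifnb1, which encodes interferon β, had 0 counts in all 6 samples of the siNeg groups, between 189 and 246 in siSlc39a2 and between 34 and 46 in siSlc39a2 PE. Against 3 counts per library it was at least 68.7-fold higher without PE and at least 13.2-fold higher with PE, and the list's median was 0.41 with this bound too. Irf7, an interferon regulatory factor, had 7.11 (SE 0.16) and Usp18, a feedback inhibitor of interferon signalling, 5.23 (SE 0.09) on the log2 scale. Ifng, which encodes interferon γ, had at most 1 count in any sample.

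**Figure D5:**
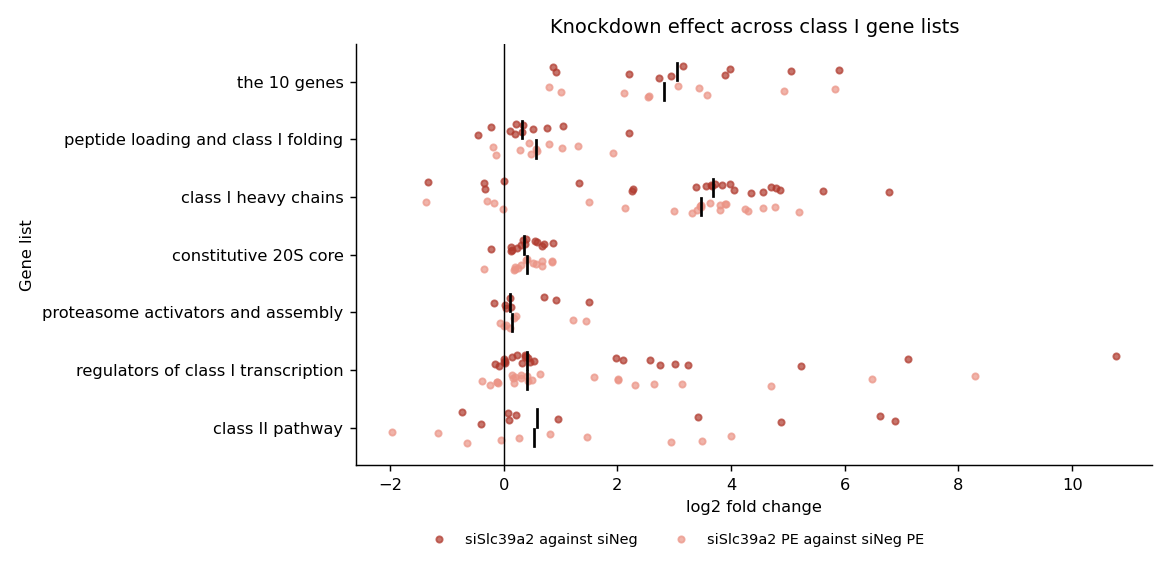
Log2 fold change of each tested gene of the 7 lists, with 1 point per gene and a black bar at each median, for the knockdown without and with PE. The medians without PE are 3.05 for the 10 genes, 3.69 for heavy chains and between 0.12 and 0.59 for the other lists. The highest points of the regulators are the fitted values of Ifnb1, which had 0 counts in the siNeg groups, and Nlrc5 among the 10 genes rose in counts alone.

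Markers of immune and stromal cells were measured beside these changes. The 13 macrophage markers in the tables summed to between 92.0 and 127 CPM in siNeg, 49.3 and 61.6 in siSlc39a2, 45.1 and 58.6 in siNeg PE and 36.5 and 43.7 in siSlc39a2 PE. The sums were lower in knockdown than in control at the same treatment, while those of siSlc39a2 and siNeg PE overlapped. Of the 11 macrophage markers tested in siSlc39a2 against siNeg, Aif1 was higher (1.49) and Mrc1 (-1.51) and Lyz2 (-1.10) lower past the threshold. At the adjusted p alone 1 was higher and 5 lower, against 22.8% and 26.4% of all genes. The 5 lymphocyte markers summed to at most 4.47 CPM in any sample. Of them Cd3e had at most 1 count, and Cd4 was lower (-1.66, adjusted p = 0.000442 from edgeR). Ptprc, the leukocyte marker CD45, had between 4 and 16 counts in every sample.

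The 8 fibroblast markers summed to between 13860 and 18350 CPM in siNeg and 5338 and 5643 in siSlc39a2, and 9171 and 11750 in siNeg PE and 3582 and 4949 in siSlc39a2 PE. In siSlc39a2 against siNeg 4 of the 8 were lower past the threshold, against 5.21% of all genes, and none was higher. At the adjusted p alone 6 were lower, against 26.4% of all genes, and 1 was higher. Col1a2, Col1a1 and Col3a1 led with log2 fold changes of -1.69, -1.68 and -1.53. Tcf21 had a mean of 27.4 CPM in siNeg and 34.7 in siSlc39a2, and Pdgfra 41.15 and 44.67. With PE the means were 17.3 and 24.75 for Tcf21 and 68.5 and 56.4 for Pdgfra. The 6 endothelial markers summed to between 13.7 and 21.1 CPM. Of the 5 that were tested none passed the threshold in either knockdown comparison. In siNeg PE against siNeg 1 was higher and 1 lower at the adjusted p alone, against 24% and 25.7% of all genes. The lower was Pecam1 (-1.27, adjusted p = 0.00665 from edgeR), with 15 to 18 counts in siNeg and 6 to 8 in siNeg PE. Tek went the other way, with a mean of 6.77 CPM in siNeg and 10.05 in siNeg PE. The 8 cardiomyocyte markers summed to between 43790 and 44800 CPM in siNeg and 34840 and 36170 in siSlc39a2, and to between 41310 and 45410 in siNeg PE and 36980 and 38490 in siSlc39a2 PE, so that knockdown and control did not overlap. Of them Myh6 was lower past the threshold in siSlc39a2 against siNeg (-1.10, adjusted p = 4.5e-07 from edgeR). Between knockdown and control the sum fell along with Myh6, which had a mean of 15860 CPM in siNeg and 7407 in siSlc39a2. With PE the means of Myh6 were 8199 and 3672. The sum did not follow Myh6 from untreated to PE groups, where Myh7 was higher. Myh7 had a mean of 13920 CPM in siNeg and 20690 in siNeg PE, and 13450 in siSlc39a2 and 19540 in siSlc39a2 PE. The median log2 fold change of the 8 markers was -0.12 without PE and -0.08 with PE. Fewer fibroblasts and less RNA of these genes per cell cannot be told apart, and the part of these marker sums in the rise of the 10 genes was not tested.

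The 5 genes outside the 10 whose log2 CPM followed the mean of the 10 most closely over the 12 samples were Ogfr, Rnf114, Plekha4, RT1-CE5 and Trex1, with Pearson's r between 0.997 and 0.998. This is a description of samples that share 4 conditions. Their log2 fold changes in siSlc39a2 against siNeg were 1.63, 1.38, 2.24, 3.38 and 1.94. Among the 10 genes, Psme1 followed the mean of the others least (r = 0.869), followed by Nlrc5 (r = 0.968), and the other 8 had r between 0.984 and 0.998.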

How the data were processed

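The authors deposited expected counts per gene, not normalized, and FPKM values for 18483 genes of 12 samples. Per the labels, the processing notes name HISAT, Bowtie2 and the build Rnor_6.0. The counting program and annotation are not given in the sources used here. An expected count that is not whole (tolerance 0.005) divides reads among genes. B2m, Psmb9 and Psme1 were whole in all 12 samples, Tap1 in 9, Psmb8 in 6 and the other 5 genes in none.

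Counts were rounded, filtered with filterByExpr (4516 genes left out), normalized by TMM and fitted by edgeR 4.0.16 in R 4.3.3. The model had the 4 groups as its term and left 8 degrees of freedom. Contrasts were tested by quasi-likelihood, and p-values were adjusted after Benjamini and Hochberg over 13967 genes. The SE is the log2 fold change over the square root of F. Alternatives were DESeq2 1.42.0, RLE size factors, no filter, the 2 groups alone, a replicate block, limma 3.58.1 on quantile-normalized log2(count + 1) or log2 FPKM with a pseudocount of 1 or 0.1, and leaving out each sample. The sums of Tapbp with its neighbours were added after seeing the data. The fit was tested on simulated data.

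The 10 genes and the lists were chosen with earlier results of these data known. All 10 are named, with their constitutive counterparts, the Tapbp neighbours, the 3 largest changes past the threshold of each list and the 5 most alike genes. Promoter sequences are from RefSeq (GRCr8), and Nlrc5 was not among them. Totals of 24065539 to 28603854 counts per sample limit precision for low genes such as Psmb8 in siNeg.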

Additional observations from a re-analysis of the deposited data

How the results depend on the processing

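Of 760 values of the 10 genes under the alternatives, 728 kept their direction and their side of the threshold. The number of members past the threshold was 8 or 9 in siSlc39a2 against siNeg under all 14 alternatives, 9 in siSlc39a2 PE against siNeg PE under the settings other than left-out samples and 8 or 9 there, and 0 for PE and the interaction in all. Psme1 crossed a log2 fold change of 1, with 0.91 by edgeR and values between 0.83 and 1.24 under the alternatives without PE, and with 1.01 and values between 0.94 and 1.14 with PE. Limma on log2(FPKM + 1), which shrinks low values, called 610, 674, 287, 583 and 85 genes of all tested in the 5 comparisons, against 1366, 1621, 922, 1469 and 138 by edgeR.

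Nlrc5 turned in FPKM, to -0.0974 (pseudocount 1) and -0.0978 (0.1) without PE and to -0.2732 and -0.2745 with PE. B2m in siNeg PE against siNeg turned to 0.1048 and 0.1055 in FPKM and to 0.0779 with log2(count + 1), and with samples left out was between -0.1380 and 0.0402. Interactions near 0 turned as well. That of Psmb8 was 0.0621, 0.1618 and 0.0704 by limma on the 3 scales and between -0.1727 and 0.0597 with samples left out, that of Psmb9 was 0.0506 with log2(FPKM + 0.1) and between -0.2613 and 0.1053, and that of Psme1 was -0.1948 with log2(count + 1) and between -0.0178 and 0.2044. With samples left out the interaction of B2m was between -0.1633 and 0.0149, of Psme2 between -0.2218 and 0.0518 and of Nlrc5 between -0.1897 and 0.0094. The cause was not tested.

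The replicate numbers were checked for pairing by the correlation of deviations from the group means between same-numbered samples. It was between -0.0107 and 0.0250 for siNeg and siSlc39a2 and between 0.0039 and 0.320 for the PE groups. For siNeg and siNeg PE it was between 0.0535 and 0.315, and for siSlc39a2 and siSlc39a2 PE between -0.0904 and 0.221. Between differently numbered samples it was between -0.2485 and 0.0892 for siNeg and siNeg PE. For the PE groups it was then between -0.2256 and 0.1181, and for siSlc39a2 and siSlc39a2 PE between -0.2491 and 0.2358. Whether same-numbered samples share more than a number is not settled by these values. With the replicate block 8, 9, 0, 0 and 0 members passed the threshold and 1386, 1627, 929, 1466 and 182 genes in all. At the adjusted p alone the block added Psme2 (0.00803) and Tapbp (0.0426) to the genes lower with PE in siNeg, and Psmb10 (0.00907) to the interaction.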

Other observations

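Genes of the class II pathway, which presents peptides from outside the cell on professional antigen-presenting cells, were also counted. Of 10 tested, 4 were higher past the threshold in siSlc39a2 against siNeg, against 4.57% of all genes, and none lower, and all 4 rose from very few counts. RT1-Da had 0 to 2 counts in siNeg, 74 to 132 in siSlc39a2 and 15 to 18 in siSlc39a2 PE. RT1-Ba had 1 count in each siNeg sample, 69 to 154 in siSlc39a2 and 10 to 24 in siSlc39a2 PE, and RT1-Db1 had 1 to 3, 61 to 98 and 11 to 15. RT1-Da, RT1-Ba and RT1-Db1 were also near 0 in siNeg PE. They therefore passed the filter on low counts only through knockdown samples, so a rise with knockdown was a condition of being tested. In siSlc39a2 PE against siSlc39a2, 7 of the 10 were lower past the threshold, against 4.17% of all genes, and the median was -1.92 on the log2 scale, where the 10 class I processing genes had -0.52. The counts of calls and the median of the class II list include these genes and are given as a description. Cd74, the invariant chain of class II, was at 36.6 ± 4.63 CPM (SD, n = 3) in siNeg and 22.0 ± 5.05 in siSlc39a2, and at 9.94 ± 2.42 in siNeg PE and 2.55 ± 0.310 in siSlc39a2 PE, lower with PE at either transfection. Ciita, the class II transactivator, was at 2.86 ± 0.177 CPM in siNeg and 2.99 ± 0.371 in siSlc39a2, and at 2.48 ± 0.1355 in siNeg PE and 1.11 ± 0.271 in siSlc39a2 PE. Cd74 and Ciita were named after their values were seen.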
